A study of Mus musculus and Homo sapiens with 24 samples.

Results

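HepG2 cells, a line from a human liver tumour, were examined here for 10 genes of Wnt signalling, namely DKK1, NOTUM, AXIN2, NKD1, RNF43, ZNRF3, LGR5, TCF7, SP5 and TBX3. The genes were taken by symbol, and each matched 1 of the 28278 rows of the HepG2 count table. RNA-Seq of total RNA was made from 12 libraries in 4 groups of 3, labelled A, B and C. Control cells carried no treatment in the labels, and the sources used here give no vehicle for them. CoCl2 cells received 50 µM cobalt chloride, a salt that stabilises HIF1α and so mimics low oxygen, estrogen cells received 25 nM β-estradiol, and CoCl2+estrogen cells received both, each for 4 hours. All groups came from a single cell line, and nothing in the labels says that the 3 libraries of a group were separate cultures, so that p-values measure the spread between these libraries, which may be technical. The study compared these groups to separate the effects of estrogen and of a hypoxia-like state, alone and combined. Changes given below as made by an agent are differences between these groups of libraries. The part of vehicle or culture in them was not tested.

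In canonical Wnt signalling, Wnt ligands bind Frizzled and LRP5/6 at the cell surface, the AXIN, APC and GSK3 complex stops degrading β-catenin, and β-catenin activates genes with TCF/LEF factors. Many of these target genes feed back on the pathway. DKK1 blocks the LRP5/6 coreceptors and NOTUM removes the lipid from Wnt ligands, while AXIN2 restores β-catenin degradation and NKD1 binds Dishevelled. RNF43 and ZNRF3 are membrane ubiquitin ligases that remove Frizzled from the surface, and LGR5 is a receptor for the R-spondins that counter those ligases. TCF7, SP5 and TBX3 encode transcription factors. In liver, Wnt signalling maintains the pericentral programme of hepatocytes, and HepG2 cells carry a deletion in CTNNB1 that makes their β-catenin resistant to degradation.

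The libraries held 13592637 to 21701480 estimated counts. Levels are given as counts scaled to the library size (CPM) after scaling by the trimmed mean of M values (TMM), and they were compared only within a gene, since no gene lengths were used. Each of the 10 genes had from 483 to 42563 counts in every library and passed the filter on low counts in every comparison. Their coefficient of variation within a group was 1.10% to 12.7%, with a median of 3.79%, beside a counting error of 0.528% to 4.55% at the lowest count of a group. One library stood apart, CoCl2 replicate B, whose chi-square statistic per gene against the other CoCl2 libraries was 42.9 and 61.4, while the other 10 pairs within groups gave 6.16 to 15.97. Changes of the 10 genes that use the CoCl2 group are therefore given with and without it. Of the treatment checks, the HIF1 target PFKFB3 rose from 13.8 to 108 CPM with CoCl2, and VEGFA, ADM, NDRG1 and CA9 rose as well. Estrogen alone also raised VEGFA, from 69.5 to 453.5 CPM, as well as ADM and NDRG1, and it lowered PFKFB3 and CA9. With CoCl2 added to estrogen, PFKFB3, ADM and NDRG1 rose. VEGFA (log2 change -0.15, edgeR adjusted p = 0.0686) and CA9 (log2 change 0.88, edgeR adjusted p = 0.053) stayed short of the threshold of 0.05 there. Among estrogen receptor genes, ESR1 was at 0.192 CPM in control and 3.90 CPM in estrogen cells, and GPER1 at 34.1 and 32.7 CPM. Of the classical estrogen targets, TFF1 stayed at or under 0.314 CPM in the group means, and GREB1 fell by 0.61 on the log2 scale with estrogen.

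**Figure D1:**
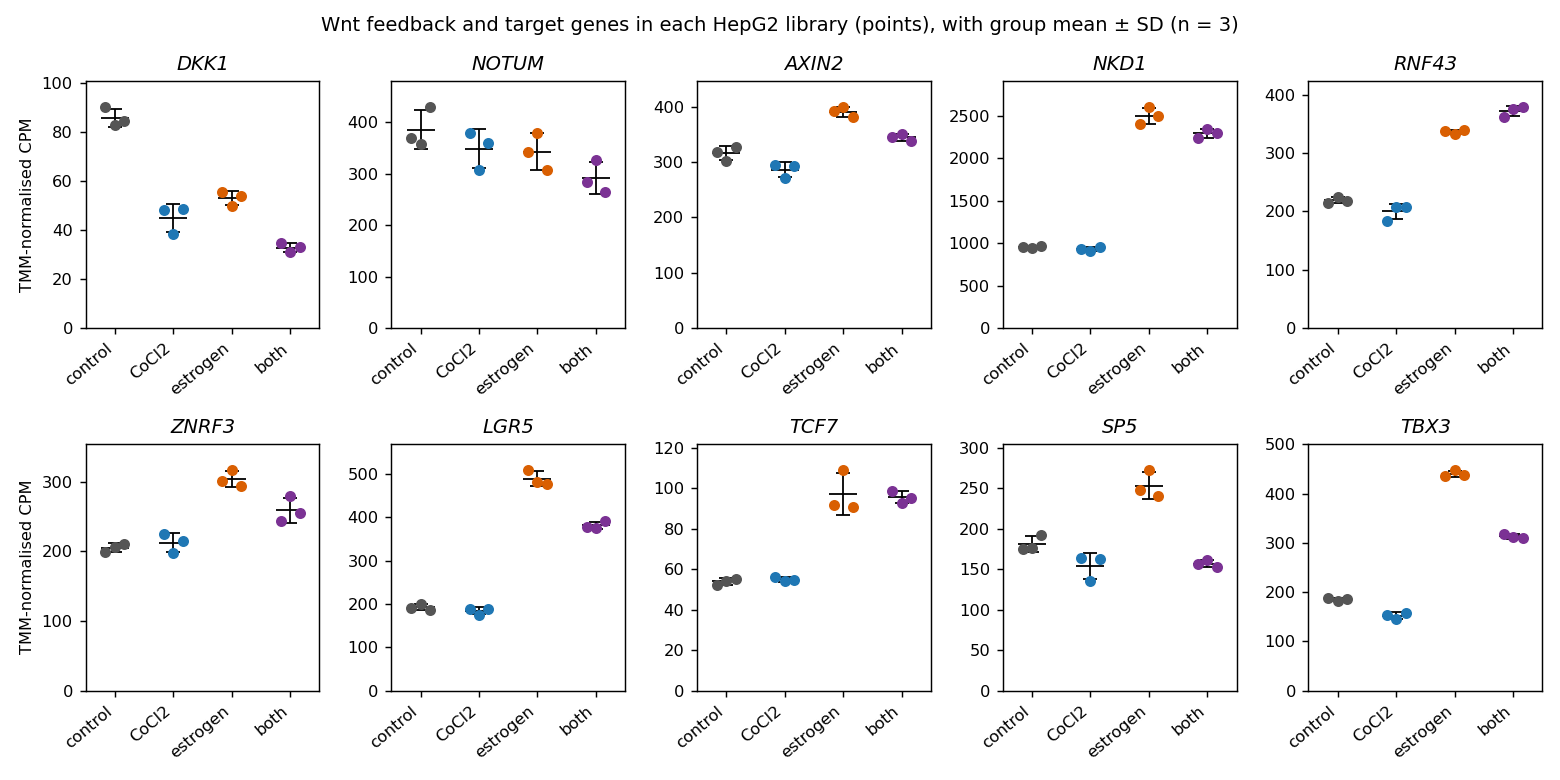
TMM-normalised CPM of the 10 genes (1 panel each, vertical axis from 0) in each of the 12 HepG2 libraries, with points for libraries and bars for the group mean ± SD (n = 3). NKD1, LGR5 and TBX3 have both estrogen-treated groups far above the other groups, DKK1 is lowest in CoCl2+estrogen cells, and SP5 is high in estrogen cells alone.

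With estrogen, 8 of the 10 genes rose and DKK1 fell, while NOTUM did not pass the test. NKD1, LGR5 and TBX3 had the highest rises, to between 2.35-fold and 2.60-fold of control, and TCF7 followed at 1.78-fold. Of all 16281 genes tested in this comparison, 34.7% were called higher and 34.2% lower by the quasi-likelihood test of edgeR at a p of at most 0.05 after Benjamini-Hochberg adjustment over all genes tested, which is the rule for every call. The 10 genes had a median log2 change of 0.58 beside -0.004 for all tested genes, and a median size of change, sign aside, of 0.65 beside 0.66. The median of all genes depends on the scaling, and with library totals alone it was -0.13. The 10 genes and the Wnt list below were chosen with earlier results of these data known. Their counts and medians, here and below, are therefore a description and no test of the set. In bulk RNA, fewer cells of a kind and less RNA per cell cannot be told apart.

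Of the secreted inhibitors, DKK1 was at 90.0, 82.7 and 84.4 CPM in the control libraries and at 55.6, 49.7 and 53.9 CPM in the estrogen libraries. Every estrogen library lay below every control library, and the mean went from 85.7 ± 3.82 to 53.1 ± 3.01 (SD, n = 3). This was a log2 change of -0.71 (SE 0.07, edgeR adjusted p = 2.37e-07), or 1.63-fold lower. NOTUM, the Wnt deacylase, was at 368, 358 and 429 CPM in control and 342, 379 and 307 CPM in estrogen cells. Its groups overlapped, with a log2 change of -0.18 (95% interval -0.35 to -0.01, edgeR adjusted p = 0.0546). NOTUM varied by 9.88% to 10.7% within each group, and 5 of 14 alternative settings placed it under the threshold. These were the fits without control replicate B (adjusted p = 0.0253 by edgeR) and without estrogen replicate B (adjusted p = 0.00896 by edgeR). The others were upper-quartile scaling, library totals alone and no filter on low counts, with edgeR adjusted p-values of 0.0116, 0.00281 and 0.0165.

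Of the cytoplasmic feedback genes, NKD1 was at 957, 942 and 962 CPM in control libraries and at 2405, 2600 and 2497 CPM in estrogen libraries. The groups were far apart relative to their spread, with a log2 change of 1.38 (SE 0.06, edgeR adjusted p = 1.23e-11). AXIN2, the β-catenin destruction scaffold often read as a general measure of Wnt activity, was at 319, 302 and 328 CPM in control and 393, 399 and 381 CPM in estrogen libraries. Its groups did not overlap either, but the log2 change was only 0.29 (SE 0.06, edgeR adjusted p = 0.000255), the smallest of the 8 rises.

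At the receptor level, the Frizzled-removing ligases and the R-spondin receptor all rose with estrogen. RNF43 went from 215, 225 and 217 CPM to 337, 333 and 340 CPM, a log2 change of 0.60 (SE 0.06, edgeR adjusted p = 1.21e-07). ZNRF3, the paralogue of RNF43 with the same activity, went from 199, 206 and 211 CPM to 301, 317 and 295 CPM, a log2 change of 0.55 (SE 0.06, edgeR adjusted p = 4.69e-07). The 95% intervals of these 2 log2 changes were 0.49 to 0.72 for RNF43 and 0.43 to 0.68 for ZNRF3. LGR5, known as a marker of Wnt-driven stem cells, rose far more, from 190, 200 and 187 CPM to 508, 481 and 477 CPM. Its log2 change was 1.33 (SE 0.06, edgeR adjusted p = 3.05e-11), and no library of either group came near the other group.

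All 3 transcription factor genes rose with estrogen. TCF7, which encodes the β-catenin partner TCF1, went from 52.1, 54.4 and 55.5 CPM to 92.0, 109 and 90.6 CPM, with estrogen replicate B above the other estrogen libraries. The log2 change was 0.83 (SE 0.08, edgeR adjusted p = 1.52e-07). SP5, a zinc-finger repressor of Wnt target genes, went from 175, 176 and 193 CPM to 248, 273 and 240 CPM, a log2 change of 0.47 (SE 0.06, edgeR adjusted p = 1.03e-05). TBX3, a T-box factor and a target of β-catenin in liver tumours, went from 189, 183 and 186 CPM to 436, 448 and 438 CPM. Its SD was 3.01 CPM in control and 6.17 CPM in estrogen cells, against a difference of log2 1.23 (SE 0.06, edgeR adjusted p = 3.61e-11).

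**Figure D2:**
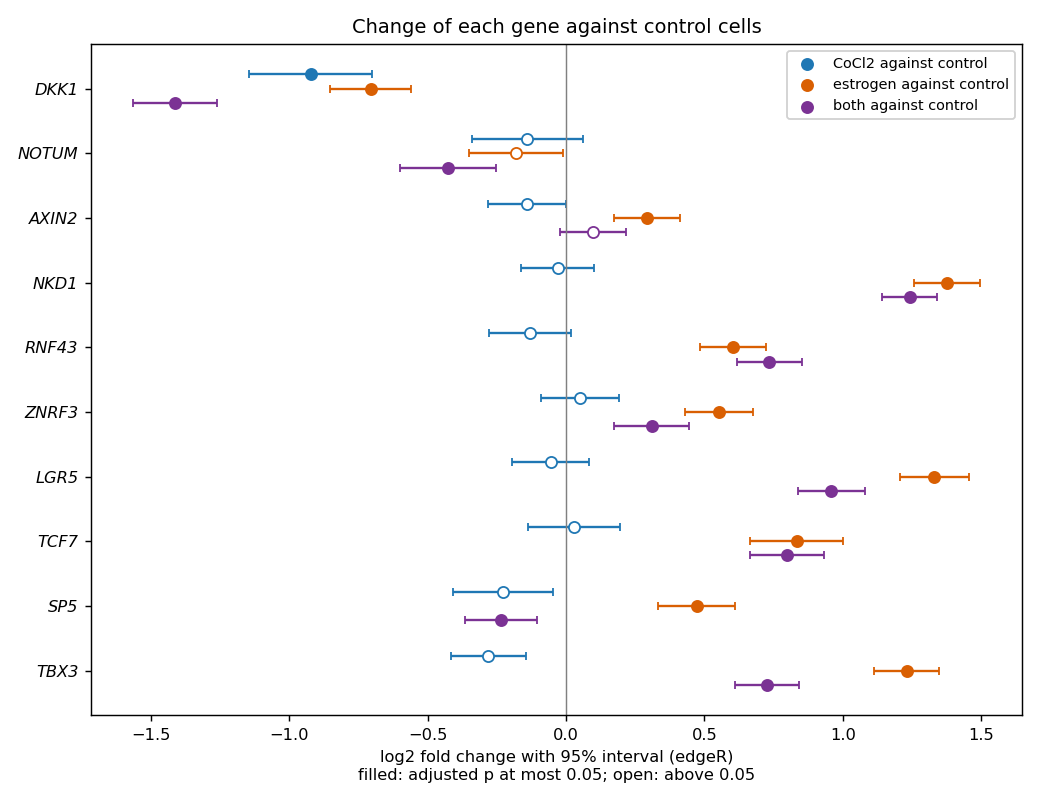
log2 fold change of each gene against control cells (horizontal axis, edgeR estimate with 95% interval) for CoCl2, estrogen and both, with filled points at an adjusted p of at most 0.05 and open points above it. CoCl2 moved DKK1 alone past the threshold, to -0.92, whereas estrogen gave rises from 0.29 for AXIN2 to 1.38 for NKD1.

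The liver character of the cells was read from 9 genes expressed in liver cells, which were all detected. They were ALB, AFP, APOA1, APOB, TTR, SERPINA1, FGB, HNF4A and TF. Their summed level was 27570 to 30120 CPM in control, 29960 to 31770 CPM in CoCl2, 15220 to 16610 CPM in estrogen and 16580 to 17380 CPM in CoCl2+estrogen libraries, so that it moved with estrogen. Markers of other cells also shifted. The sum of 4 fibroblast markers, nearly all COL1A1, with COL1A2 and DCN at 0 in every library, went from 19.4 to 22.9 CPM in control to 1.00 to 1.46 CPM in estrogen libraries. The sum of 4 endothelial markers was 1.09 to 1.63 CPM in control and 1.95 to 3.22 CPM in estrogen libraries, with KDR at 0 in all of them. For 4 blood markers the sum was 26.2 to 49.6 CPM and 13.7 to 18.6 CPM, with PTPRC and CD3E at 0 in all of them. It was made of CD68, with means of 29.1 CPM in control and 15.1 CPM in estrogen cells, and of HBB, which varied within groups. In CoCl2 libraries HBB ran from 0 to 57.9 CPM and the sum from 29.2 to 95.9 CPM. The part of these shifts in the changes of the Wnt genes was not tested.

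With CoCl2 alone, DKK1 was the single gene of the 10 that passed the test, and it fell. None rose by edgeR or by DESeq2, and DESeq2 added TBX3 as lower. DESeq2 called 304 of all 15872 genes higher and 41 lower. By edgeR, 3 of the 10 had an unadjusted p under 0.05, beside 1789 of the 15872 genes tested. Across all 15872 genes tested, 1.31% were called higher and 0.132% lower. The 10 genes had a median log2 change of -0.13 beside -0.003 for all tested genes.

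DKK1 was at 48.1, 38.4 and 48.6 CPM in the CoCl2 libraries, all below the lowest control library at 82.7 CPM. The mean of 45.0 ± 5.71 CPM (SD, n = 3) was 52.6% of control, with a log2 change of -0.92 (SE 0.10, edgeR adjusted p = 0.000514). CoCl2 replicate B was the lowest of the 3 libraries, and without it the change was -0.82 (edgeR adjusted p = 4.82e-05). All 14 alternative settings called DKK1 lower.

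TBX3 was at 153, 146 and 159 CPM with CoCl2, also below each control library, but its log2 change of -0.28 (95% interval -0.42 to -0.14) had an adjusted p of 0.0568 by edgeR. Over its 14 alternatives the adjusted p ran from 0.00632 to 0.403, with 5 of them under the threshold, and it was 0.150 without CoCl2 replicate B. SP5 was at 164, 136 and 162 CPM with CoCl2, with a log2 change of -0.23 (95% interval -0.41 to -0.05, edgeR adjusted p = 0.327), and no alternative called it. Without CoCl2 replicate B, the CoCl2 library with the lowest SP5 level, its change was -0.15 (edgeR adjusted p = 0.606). For the other 7 genes the log2 changes lay between -0.14 and 0.05. Their widest 95% interval, that of NOTUM, ran from -0.34 to 0.06. This interval belongs to the NOTUM estimate and is not a limit of detection. The smallest change that would have been called was not tested. NKD1, which moved so far with estrogen, was at 936, 907 and 952 CPM with CoCl2, with an interval of -0.16 to 0.10. LGR5 was at 189, 175 and 189 CPM, with an interval of -0.19 to 0.08. Leaving out CoCl2 replicate B gave log2 changes of -0.01 for NKD1, -0.02 for LGR5, -0.06 for NOTUM, -0.10 for AXIN2, -0.16 for RNF43, 0.10 for ZNRF3 and 0.04 for TCF7, and none of these was called.

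In CoCl2+estrogen cells, 6 of the 10 genes were higher than in control and 3 were lower. The rises were those of NKD1, LGR5, TCF7, RNF43, TBX3 and ZNRF3, and the falls those of DKK1, NOTUM and SP5. Among all 16201 genes tested, 32.3% were called higher and 33.2% lower. The median log2 change was 0.52 for the 10 genes beside -0.009 for all tested genes. This comparison and the preceding ones share the control libraries.

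DKK1 reached its lowest level here, at 34.6, 30.9 and 33.1 CPM. The mean of 32.8 ± 1.86 CPM (SD, n = 3) was 38.3% of control, a log2 change of -1.41 (SE 0.07, edgeR adjusted p = 4.03e-10), or 2.66-fold lower. From low to high, the order of the DKK1 groups was CoCl2+estrogen, CoCl2, estrogen and control, and no neighbours in that order overlapped. NOTUM was at 285, 326 and 265 CPM and passed the test here, with a log2 change of -0.43 (SE 0.08, edgeR adjusted p = 0.000327). In the NOTUM order, CoCl2+estrogen, estrogen, CoCl2 and control, each pair of neighbours overlapped.

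Of the genes that rose, NKD1 was at 2241, 2347 and 2304 CPM, a log2 change of 1.24 (SE 0.05, edgeR adjusted p = 2.54e-11). LGR5 was at 378, 374 and 391 CPM, a log2 change of 0.96 (SE 0.06, edgeR adjusted p = 2.41e-09), below its level with estrogen alone. RNF43 was the sole gene with its highest level under both agents, at 363, 375 and 378 CPM, a log2 change of 0.74 (SE 0.06, edgeR adjusted p = 2.79e-08). TCF7, at 98.7, 93.0 and 95.5 CPM, overlapped its estrogen group, and its log2 change against control was 0.80 (SE 0.06, edgeR adjusted p = 4.31e-08). TBX3 was at 318, 312 and 310 CPM and ZNRF3 at 244, 279 and 255 CPM, with log2 changes of 0.73 and 0.31.

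SP5 and AXIN2, which rose with estrogen alone, were not among these. SP5 was at 156, 162 and 153 CPM, below every control library, with a log2 change of -0.23 (SE 0.06, edgeR adjusted p = 0.00349). AXIN2 was at 345, 351 and 338 CPM, above every control library, but its log2 change of 0.10 (95% interval -0.02 to 0.22) did not pass the test (edgeR adjusted p = 0.134).

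Adding estrogen to CoCl2 was read from CoCl2+estrogen against CoCl2 cells. Here 7 genes were higher in CoCl2+estrogen cells and 2 were lower, where 30.1% of the 16200 genes tested were called higher and 30.8% lower. NKD1 rose by 1.29, LGR5 by 1.03, TBX3 by 1.02, RNF43 by 0.88, TCF7 by 0.79, ZNRF3 by 0.27 and AXIN2 by 0.25 on the log2 scale, with edgeR adjusted p-values from 2.66e-09 for NKD1 to 0.00626 for ZNRF3. DKK1 was lower, with a log2 change of -0.48 (SE 0.10, edgeR adjusted p = 0.00102). NOTUM was also called lower, at -0.27 (edgeR adjusted p = 0.0246), but its groups overlapped and the call held in 2 of the 6 settings that left out 1 library. It was lost without CoCl2 replicate A or C and without CoCl2+estrogen replicate A or C, and its adjusted p over 14 alternatives ran from 0.000626 to 0.127. SP5 had a log2 change of 0.01 (95% interval -0.17 to 0.19, edgeR adjusted p = 0.937). Without CoCl2 replicate B these 9 calls stood, with log2 changes of 1.26 for NKD1, 0.99 for LGR5, 0.98 for TBX3, 0.90 for RNF43, 0.77 for TCF7, 0.22 for ZNRF3, 0.21 for AXIN2, -0.58 for DKK1 and -0.36 for NOTUM, and the SP5 change was -0.08. Of all 16110 genes tested without CoCl2 replicate B, 4938 were called higher and 5035 lower.

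Adding CoCl2 to estrogen lowered 5 of the 10 genes and raised RNF43. The genes that fell were DKK1, SP5, TBX3, LGR5 and ZNRF3. Of the 15925 genes tested between CoCl2+estrogen and estrogen cells, 8.14% were called higher and 8.85% lower. The median log2 change was -0.20 for the 10 genes beside 0.01 for all tested genes.

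SP5 and DKK1 moved by nearly the same amount, with log2 changes of -0.66 (SE 0.06, edgeR adjusted p = 5.73e-07) and -0.67 (SE 0.07, edgeR adjusted p = 6.16e-06). TBX3 was lower by 0.46 on the log2 scale, a value of -0.46 (SE 0.05, edgeR adjusted p = 5.35e-06), and LGR5 had a change of -0.33 (SE 0.05, edgeR adjusted p = 0.000229). Each of these 4 calls held in all 14 alternatives. The smaller changes of ZNRF3, at -0.20 (edgeR adjusted p = 0.0271), and RNF43, at 0.17 (edgeR adjusted p = 0.0251), were called in 9 of 14 alternatives. Both lost the call without estrogen replicate A or B, without CoCl2+estrogen replicate C, and in a fit of all 12 libraries. RNF43 also lost it without CoCl2+estrogen replicate B, and ZNRF3 without CoCl2+estrogen replicate A, with adjusted p-values up to 0.105 and 0.137. AXIN2 just missed the threshold, at -0.15 (95% interval -0.26 to -0.04, edgeR adjusted p = 0.0514), with 7 of 14 alternatives calling it, among them the one without estrogen replicate C (adjusted p = 0.0488 by edgeR). NOTUM had a change of -0.20 (95% interval -0.37 to -0.04, edgeR adjusted p = 0.0923), which 5 of 14 alternatives called, those without estrogen replicate C and without CoCl2+estrogen replicate B included. NKD1 changed by -0.09 (95% interval -0.21 to 0.02) and TCF7 by 0.01 (95% interval -0.15 to 0.16), neither past the test.

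**Figure D3:**
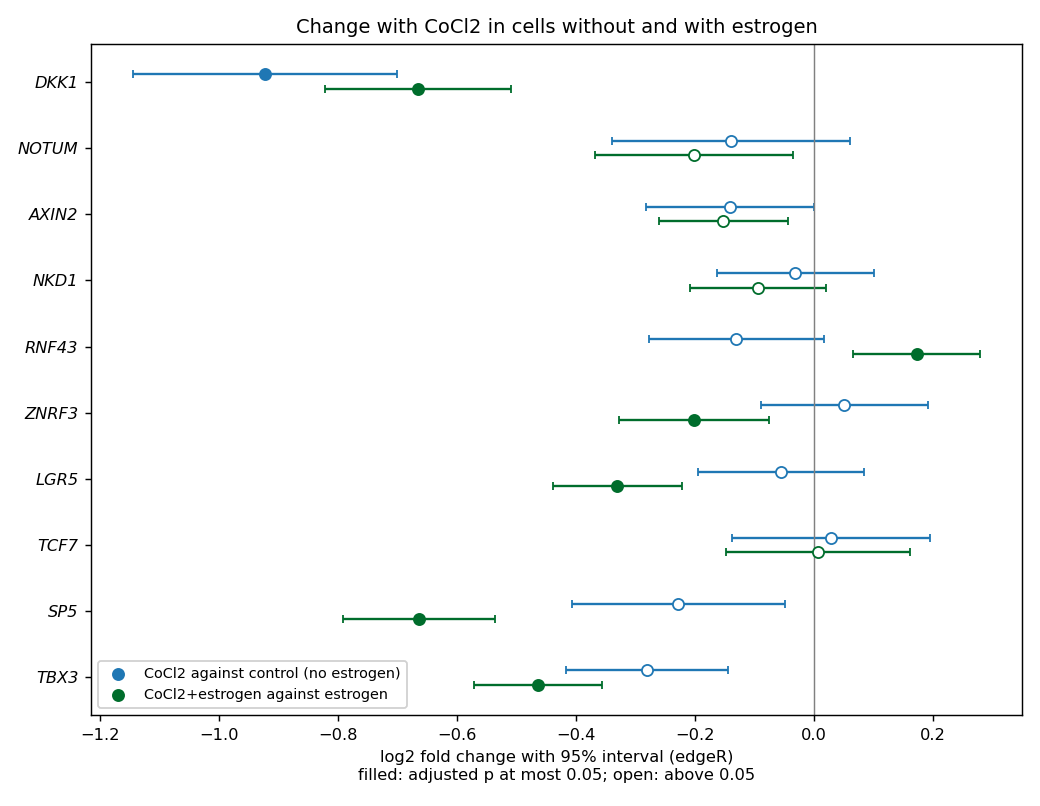
log2 fold change with CoCl2 for each gene (horizontal axis, edgeR estimate with 95% interval), in cells without estrogen and in cells with estrogen, with filled points at an adjusted p of at most 0.05. DKK1 fell in both, SP5 went from -0.23 without estrogen (-0.15 without CoCl2 replicate B) to -0.66 with it, and RNF43 lay at -0.13 and 0.17.

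The difference between those 2 effects of CoCl2 was tested as the interaction of CoCl2 and estrogen in a fit of all 12 libraries. SP5 was the single gene of the 10 called, and it was lower under both agents than the separate log2 changes add up to. The interaction of SP5 was -0.44 (SE 0.11, 95% interval -0.67 to -0.21, edgeR adjusted p = 0.0226). No gene of the 10 had a positive interaction past the threshold, and over all 16681 genes tested 2.1% were called higher and 3.7% lower. By edgeR, 5 of the 10 had an unadjusted p under 0.05, beside 3072 of all tested genes. DESeq2 called 5 of the 10, RNF43 as positive and SP5, LGR5, ZNRF3 and TBX3 as negative. Over all 16681 genes, DESeq2 called 407 higher and 879 lower, where edgeR called 350 and 617. Without CoCl2 replicate B, 4 of the 10 were called, namely SP5, LGR5, ZNRF3 and RNF43, and the SP5 interaction was -0.54. Of all 16631 genes in that fit, 340 were called higher and 704 lower. Without control replicate A or without estrogen replicate B none was called, and without estrogen replicate C or CoCl2+estrogen replicate B there were 2, LGR5 joining SP5 in the former and ZNRF3 in the latter. Without control replicate A, 221 of all 16636 genes were higher and 457 lower, and without estrogen replicate B 259 and 492 of 16630. Without estrogen replicate C there were 239 and 566 of 16632, and without CoCl2+estrogen replicate B 259 and 571 of 16611. Without CoCl2 replicate C the one gene called was RNF43, at 0.34 (edgeR adjusted p = 0.0400). That fit called 314 of all 16610 genes higher and 478 lower. The SP5 call held in 15 of 19 alternatives and was lost without control replicate A, CoCl2 replicate C or estrogen replicate B and with library totals alone, with adjusted p-values from 0.0555 to 0.0692. With library totals alone, RNF43 was the one gene of the 10 called, at 0.36 (edgeR adjusted p = 0.0142).

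RNF43 had a positive interaction of 0.30 (95% interval 0.12 to 0.49, edgeR adjusted p = 0.0530), and LGR5 a negative one of -0.28 (95% interval -0.46 to -0.09, edgeR adjusted p = 0.0802). Of 19 alternatives, 5 called RNF43 and 6 called LGR5. DKK1 had an interaction of 0.25 (95% interval -0.02 to 0.53, edgeR adjusted p = 0.312). ZNRF3 and TBX3 were at -0.25 and -0.18, and the remaining 4 genes, NOTUM, AXIN2, NKD1 and TCF7, were between -0.07 and -0.01. The interval of NKD1 was -0.25 to 0.12. Without CoCl2 replicate B the interaction was 0.14 for DKK1, 0.31 for RNF43, -0.33 for LGR5, -0.32 for ZNRF3 and -0.23 for TBX3, and -0.17 for NOTUM, -0.07 for AXIN2, -0.10 for NKD1 and -0.05 for TCF7.

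How alike the genes were is described by Pearson correlations of log2 CPM over the 12 libraries, with no test, since these libraries share treatments and scaling. NKD1 and TCF7 were the most alike pair (r = 0.988), and LGR5 correlated with NKD1 at 0.986 and with TBX3 at 0.985. DKK1 correlated positively with NOTUM (r = 0.715) and with SP5 (r = 0.352), and negatively with the other 7. NOTUM and RNF43 had the lowest value, -0.609. SP5 stood between, at 0.809 with AXIN2 and 0.330 with RNF43. Among 13261 genes whose mean reached 1 CPM, the one most like DKK1 was TTLL4 (r = 0.972), and the glucose transporter gene SLC2A2 was also close (r = 0.943). SYNE1 was nearest to NKD1 (r = 0.999), PTPRK to LGR5 (r = 0.998), CCN2 to TBX3 (r = 0.998) and PPP6R1 to TCF7 (r = 0.994). UBE2S was nearest to SP5 (r = 0.962), PPP6R2 to AXIN2 (r = 0.987), ZPR1 to RNF43 (r = 0.992), SUSD6 to ZNRF3 (r = 0.986) and RBM14 to NOTUM (r = 0.952).

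The rest of the pathway was read from a list of 112 further Wnt genes, all of them rows of the table. With CoCl2 alone, edgeR called none of the 79 listed genes that were tested. An unadjusted p under 0.05 was found by edgeR for 10 of the 79, beside 1789 of all 15872 genes tested. DESeq2 called 1 listed gene, FZD4, as higher, as edgeR did without CoCl2 replicate B. With estrogen, 48 of 81 were higher and 19 lower, where 34.7% and 34.2% of all tested genes were. Of these 81, 10 passed the filter on low counts through 1 group only, and among the other 71 there were 44 rises and 18 falls, with a median log2 change of 0.45. In CoCl2+estrogen cells, 43 of 79 were higher and 18 lower than in control (32.3% and 33.2% of all tested genes), and 40 of 79 were higher and 16 lower than in CoCl2 cells (30.1% and 30.8%), or 41 and 16 without CoCl2 replicate B. In that comparison without CoCl2 replicate B, 4938 of all 16110 genes were called higher and 5035 lower. Between CoCl2+estrogen and estrogen cells 6 of 79 were higher and 10 lower (8.14% and 8.85%). Some of the listed genes tested in these comparisons also passed the filter through 1 group only.

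**Figure D4:**
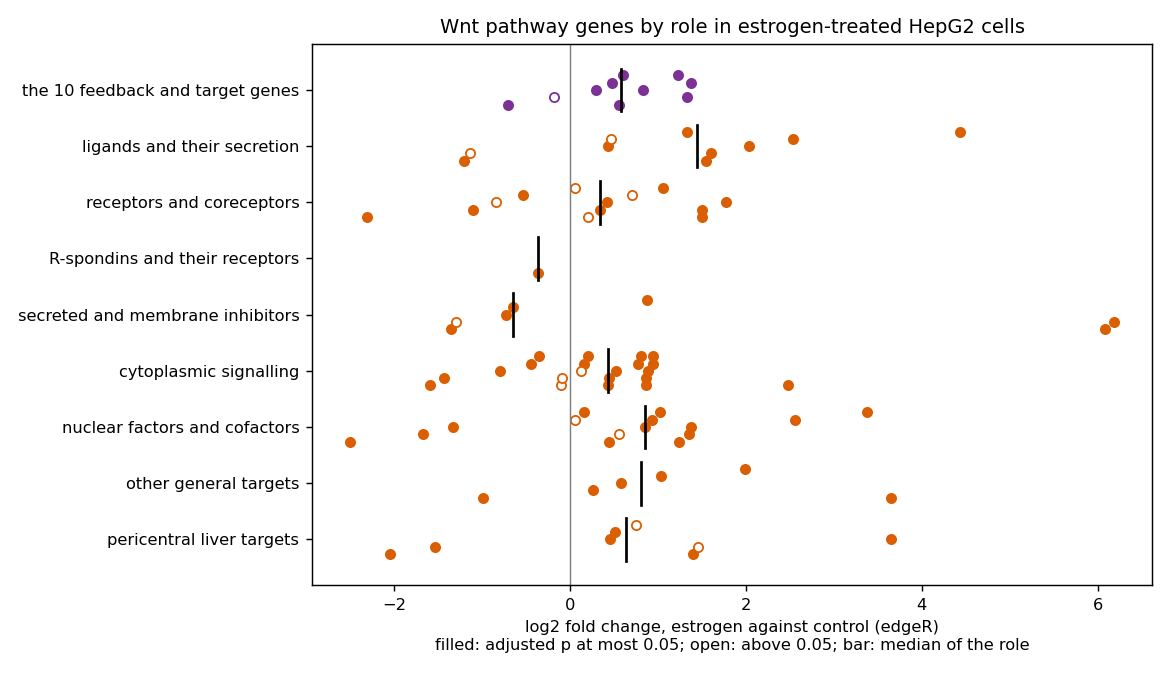
log2 fold change between estrogen and control cells (horizontal axis, edgeR) for the 10 feedback and target genes and for 81 listed Wnt pathway genes by role, with filled points at an adjusted p of at most 0.05 and bars at the median of each role. Most roles spread to both sides of 0, and the medians run from -0.65 for secreted and membrane inhibitors to 1.44 for ligands and their secretion. The points near 6 are DKK2 and FRZB, which had no count in control cells, so that their position depends on the fit.

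At the start of the pathway, 9 of the 19 listed Wnt ligand genes were tested. Of these, 7 rose with estrogen and none fell, where 34.7% of all tested genes rose and 34.2% fell. PORCN, which encodes the acyltransferase that puts the lipid on Wnt ligands, fell from 3.32 to 1.47 CPM. WNT11 went from 0.482 to 10.6 CPM (log2 change 4.44, edgeR adjusted p = 4.05e-11) and WNT2B from 2.32 to 9.67 CPM (log2 change 2.04, edgeR adjusted p = 1.37e-07), so that their rises began from low levels. Of 13 receptor genes tested, 6 rose and 3 fell, beside the same shares of all tested genes. Among them were FZD5 with a log2 change of 1.06 and FZD4 with -2.31, from 239 to 48.7 CPM. LGR4, the one gene of the R-spondin group that passed the filter, fell by 0.37 on the log2 scale while its relative LGR5 rose. Of the inhibitor genes, 4 passed the filter in both groups. APCDD1 rose by 0.88 on the log2 scale, and KREMEN1, the DKK1 coreceptor, KREMEN2 and SFRP4 had changes of -0.65, -1.36 and -0.73. DKK2 and FRZB were also called higher, but had no count in any control library and at most 8 and 10 counts in an estrogen library.

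Inside the cell, 13 of 21 cytoplasmic genes rose and 5 fell with estrogen, where 34.7% of all tested genes rose and 34.2% fell. TNKS, which encodes the tankyrase that marks AXIN for degradation, rose by 0.94 and AMER1, a membrane adaptor of APC, had a log2 change of -1.60. CTNNB1 itself, chosen after its values were seen, was at 599.8 CPM in control and 561.8 CPM in estrogen cells, a log2 change of -0.11 that did not pass the test (edgeR adjusted p = 0.0980). Of the 14 nuclear genes that passed the filter in both groups, 10 rose and 2 fell, beside the same shares of all tested genes. The corepressor gene TLE3 rose from 33.5 to 199 CPM (log2 change 2.56), TLE4 by 3.37, and the coactivator genes CREBBP and BCL9L by 1.38 and 1.36. TCF7L2, a further β-catenin partner that was also chosen after its values were seen, rose from 58.4 to 139 CPM (log2 change 1.24, edgeR adjusted p = 1.64e-10).

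Among other general target genes, 5 passed the filter in both groups, of which 4 rose and TNFRSF19 fell with estrogen. Of all tested genes, 34.7% rose and 34.2% fell. EPHB2, with at most 1 count in a control library and 7 in an estrogen library, was also called higher. MYC went from 229.8 to 919 CPM (log2 change 1.99), SOX9 had a log2 change of 1.04 and TNFRSF19 one of -0.99. Of the 5 pericentral liver genes that passed the filter in both groups, 3 rose and 2 fell, beside the same shares of all tested genes. The glutamate transporter gene SLC1A2 went from 44.5 to 564 CPM (log2 change 3.65) and GLUL, encoding glutamine synthetase, from 313 to 451 CPM (log2 change 0.51), whereas the ammonium transporter gene RHBG went from 42.8 to 14.9 CPM (log2 change -1.54) and SLC13A3 from 25.5 to 6.22 CPM (log2 change -2.05).

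The interaction of CoCl2 and estrogen was called for 9 of 85 listed genes, 2 positive and 7 negative (2.1% and 3.7% of all tested genes). Without CoCl2 replicate B there were 2 and 8, where 340 and 704 of all 16631 genes were called. The positive listed genes in the fit of all libraries were FZD4, at 0.64, and AMER1, at 0.79, and both fell with estrogen alone. SOX9 had a negative interaction of -0.65 (SE 0.09, edgeR adjusted p = 0.000212), and WNT11, FZD5, FZD7, TNKS, BCL9L and TLE3 were also negative. Of these, SOX9 was at 922 CPM with estrogen and 659 CPM with both agents, against 444 CPM in control, so that unlike SP5 it remained above control.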

How the data were processed

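RNA-Seq data of 12 HepG2 libraries were analysed, in 4 groups of 3 that the sample labels name as control, CoCl2, estrogen or both agents. Libraries were made from total RNA with a stranded kit after ribosomal RNA depletion. Per the study's methods, contaminant reads were removed with Bowtie2 2.2.5 and the rest aligned with STAR 2.7.8a and quantified on RefSeq transcripts in Partek Flow. The submitters' processing notes name the builds hg38 and mm10, and the strand setting of the counting is not given in the sources used here. The authors deposited estimated counts per gene, unscaled, of which 23.8% are not whole. RNF43 and ZNRF3 had whole counts in none of the 12 libraries, AXIN2 in 1, LGR5 in 3, and TCF7 and TBX3 in 6 each. DKK1, NOTUM, NKD1 and SP5 had whole counts in all 12. Part of the reads of the first 6 genes was thus assigned as fractions, and the reason was not tested.

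After rounding, the counts were fitted with edgeR 4.0.16, and as an alternative DESeq2 1.42.0, under R 4.3.3. Each comparison was fitted on its 6 libraries (the interaction on all 12), with TMM scaling, a filter that kept genes above 5 counts in any library of the fit, the quasi-likelihood test and Benjamini-Hochberg adjustment over all tested genes at a threshold of 0.05. Folds come from these fits and can differ slightly from the ratio of mean CPM. Log2 CPM used a prior count of 2. The functions were tested on simulated data. The study's own test, DESeq2, was an alternative, beside other scalings, filters, a fit of all 12 libraries, a block on the replicate letter, and fits without 1 library at a time. Levels were recomputed with library totals alone.

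All 10 genes are named. Of the 112 further Wnt genes, up to 4 per role and comparison with the smallest adjusted p and a mean of at least 1 CPM could be named, and the text gives part of them. Up to 3 genes of highest correlation were taken per gene. The genes and lists were chosen with earlier results of these data known. The mouse liver table was not used here, and a planned search of promoter motifs was not run, so that no sequence is printed.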

Additional observations from a re-analysis of the deposited data

Results flagged for a closer look

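SP5 differed between the effects of CoCl2 without and with estrogen. Its interaction of CoCl2 and estrogen was -0.44 on the log2 scale (SE 0.11, edgeR adjusted p = 0.0226), and it was the single gene of the 10 past this test. The mean level of SP5 was 181 CPM in control, 154 CPM in CoCl2, 253.5 CPM in estrogen and 157 CPM in CoCl2+estrogen cells, each over 3 libraries. No library with both agents reached the lowest estrogen library, at 240 CPM. The interaction was negative in all 19 alternative settings, from -0.54 to -0.38, and past the threshold in 15 of them.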

How the results depend on the processing

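The 9 calls with estrogen against control, the 9 with both agents against control and the DKK1 call with CoCl2 kept their direction and stayed past the threshold in every alternative run. The number of genes called with CoCl2 against control was 2 in place of 1 with library totals alone, with no filter on low counts, with filterByExpr, with all 12 libraries in one fit and with DESeq2, in each case DKK1 and TBX3. Of all 14011 to 19592 genes tested, those settings called 143 to 305 higher and 21 to 54 lower. The fit reported above called 208 and 21. For the interaction the number was 2 with median-ratio scaling, with upper-quartile scaling, with no filter and with filterByExpr, 5 with DESeq2, and 0 to 4 when 1 library was left out. With library totals alone it was 1, RNF43 in place of SP5. Over all genes, the scalings other than library totals, the filters and DESeq2 called 307 to 415 interactions higher and 614 to 879 lower. Library totals alone called 520 and 488, and leaving out 1 library 221 to 341 and 457 to 704. Leaving out 1 library gave 4 to 8 genes in place of 6 between CoCl2+estrogen and estrogen cells. Of all 15771 to 15852 genes tested, those fits called 718 to 1200 higher and 953 to 1293 lower, beside 1297 and 1409 with every library. Of 890 recomputed log2 changes of the 10 genes, 814 kept both direction and side of the threshold, 37 gained a call, 19 lost one and 20 changed sign, all 20 of them for values near 0 that were not called. With library totals alone these were ZNRF3 (-0.0089) and TCF7 (-0.033) with CoCl2, SP5 against CoCl2 (-0.042), TCF7 against estrogen (-0.00048), and the interactions of AXIN2 (0.041) and TCF7 (0.031). SP5 against CoCl2 was -0.016 with upper-quartile scaling, and TCF7 against estrogen was -0.0048 with filterByExpr and -0.0016 with all 12 libraries. Leaving out 1 library gave -0.082 to 0.060 for SP5 against CoCl2, -0.042 to 0.089 for TCF7 against estrogen, and for the interactions -0.071 to 0.020 for AXIN2, -0.18 to 0.017 for NOTUM and -0.094 to 0.071 for TCF7. The cause of these changes was not tested. Library totals alone shifted the median log2 change of all genes to -0.13 with estrogen and -0.10 with both agents against control. Same-letter correlations of the deviations of the libraries ran from -0.309 to 0.289, so that no regular pairing by replicate letter was seen. With 3 libraries per group, they cannot exclude a batch shared by letter. With the letter as a replicate block, 8 genes in place of 6 were called between CoCl2+estrogen and estrogen cells, NOTUM and AXIN2 being added, and 8 in place of 9 against CoCl2, where NOTUM had an adjusted p of 0.0539 by edgeR, and no other call changed. Over all 15925 genes, calls between CoCl2+estrogen and estrogen cells went from 1297 to 1895 higher and from 1409 to 1896 lower. Against CoCl2 they went from 4871 to 4641 higher and from 4989 to 4726 lower, of 16200 genes. Depth was lowest for DKK1, with 483 counts in its poorest library, a counting error of 4.55%.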
